A study of Mus musculus with 8 samples.

Results

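Hi-C compartment scores of mouse embryonic stem cells (mESCs) were examined at the genes that write and read histone H3 lysine 9 (H3K9) methylation, in cells where some of the enzymes they encode were deleted or inhibited. The 10 genes were *Setdb1*, *Setdb2*, *Suv39h2*, *Ehmt1*, *Ehmt2*, *Atf7ip*, *Trim28*, *Cbx1*, *Cbx3* and *Cbx5*. They were taken by name, and each was given the mean compartment score of the 100-kb bins that its gene body overlapped. They covered 17 of the 23972 bins scored in all 8 Hi-C libraries and made up 10 of the 20721 protein-coding autosomal genes with a scored bin. *Suv39h1*, the X-linked partner of *Suv39h2*, was not analysed here because sex chromosomes were not scored.

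H3K9 methylation marks silent chromatin and is laid down by several enzymes with different targets. SETDB1 trimethylates H3K9 at retroelements, where TRIM28 brings it to sites that KRAB zinc finger proteins recognise and ATF7IP keeps it stable in the nucleus. SUV39H1 and SUV39H2 act mainly at pericentromeric repeats, and G9a (encoded by *Ehmt2*) and GLP (encoded by *Ehmt1*) form a complex that makes most H3K9me2 in euchromatin. The HP1 proteins, HP1α (*Cbx5*), HP1β (*Cbx1*) and HP1γ (*Cbx3*), bind methylated H3K9 through their chromodomain. In Hi-C maps, chromatin separates into an A compartment, rich in active genes, and a B compartment, which is largely silent.

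Each of the 8 groups held 1 deposited set of scores, called a library here. The Setdb1 line, a conditional knockout named #33-6, was sampled untreated (Setdb1 WT), after 2 µM UNC0642 for 3 days (Setdb1 WT + UNC), after 800 nM 4-hydroxytamoxifen (4-OHT), which triggers the deletion, for 5 days (Setdb1 KO), and after 800 nM 4-OHT for 2 days followed by 2 µM UNC0642 for 3 days (Setdb1 KO + UNC). UNC0642, written UNC642 in the labels, inhibits the catalytic activity of G9a and GLP and leaves their genes in place. The other groups were wild-type mESCs named ADF1-26 without (Suv39h WT) and with 2 µM UNC0642 for 3 days (Suv39h WT + UNC), and *Suv39h1/2* double knockout mESCs named ADF157 without (Suv39h DKO) and with the same treatment (Suv39h DKO + UNC). All cells grew with LIF on gelatin. Because Suv39h WT and DKO are different clones, the genotype cannot be told apart from the clone, and because only the *Setdb1* knockout cells received 4-OHT, the agent cannot be told apart from the deletion. Within Setdb1 KO, the untreated library had 4-OHT for 5 days and the treated one for 2 days. In that pair UNC0642 cannot be told apart from the 4-OHT schedule, and the limma estimates for SETDB1 loss pool both schedules. Setdb1 WT + UNC stood apart from its line, since 6.62% of genes differed from Setdb1 WT by at least 0.01 there, against 1.42% for Setdb1 KO and 1.64% for Setdb1 KO + UNC. A compartment score is no check of a deletion, and the files carry no read counts. The study lists a read number for each Hi-C repeat, but which repeat or pool a file holds is not stated, so no depth could be assigned to a library.

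The compartment score is positive in A and negative in B and has no physical unit. Its size depends on the number of bins of a chromosome, because the root-mean-square score ran from 0.0217 to 0.0408 over chromosomes of 583 to 1924 bins. Levels of genes on different chromosomes are therefore compared by rank, as the percentile of the gene among the bins of its own chromosome. Differences between libraries are given on the score scale.

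The sequences just upstream of the genes whose enzymes were removed or inhibited, and of *Setdb2*, the member with a difference of at least 0.01 between compared libraries, show the kind of promoter these loci carry. Each run holds the 100 bases before the RefSeq transcription start (GRCm38), 5′ to 3′ on the strand of the gene, with CpG dinucleotides in capitals. The runs lie at chr3:95357203-95357302 (minus strand) for *Setdb1*, chr2:3474987-3475086 (minus) for *Suv39h2*, chr2:24919610-24919709 (minus) for *Ehmt1*, chr17:34898374-34898473 (plus) for *Ehmt2* and chr14:59440881-59440980 (minus) for *Setdb2*.
Setdb1: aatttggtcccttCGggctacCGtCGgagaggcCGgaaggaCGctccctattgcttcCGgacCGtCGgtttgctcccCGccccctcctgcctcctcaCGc
Suv39h2: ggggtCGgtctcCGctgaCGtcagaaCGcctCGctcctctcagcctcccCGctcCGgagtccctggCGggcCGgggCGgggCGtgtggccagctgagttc
Ehmt1: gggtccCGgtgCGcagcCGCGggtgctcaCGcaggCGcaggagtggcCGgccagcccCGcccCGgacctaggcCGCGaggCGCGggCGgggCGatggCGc
Ehmt2: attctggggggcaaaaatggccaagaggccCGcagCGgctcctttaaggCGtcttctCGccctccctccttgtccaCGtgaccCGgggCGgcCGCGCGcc
Setdb2: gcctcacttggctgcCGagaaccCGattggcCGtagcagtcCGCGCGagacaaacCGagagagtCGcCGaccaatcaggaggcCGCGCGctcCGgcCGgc
These windows held 10 CpG dinucleotides at *Setdb1*, 11 at *Suv39h2*, 16 at *Ehmt1*, 10 at *Ehmt2* and 14 at *Setdb2*. Over promoters of 300 bases (250 before to 50 after the start), all 10 genes had an observed over expected CpG ratio of at least 0.6, from 0.703 at *Setdb1* to 1.14 at *Atf7ip*, with a median of 0.897. Of all 32851 promoters in the RefSeq table, 35.8% reached 0.6 and the median was 0.384. This set was not limited to the protein-coding autosomal genes used elsewhere and holds more than 1 promoter for some genes. It is therefore not a matched background for the 10 genes. The letters GGGCGG, which contain a CpG, were found on either strand in 9 of the 10 promoters and in 35.7% of all promoters, and *Setdb2* was the member without them. The letters CCAAT were found in 4 of the 10, at *Setdb1*, *Setdb2*, *Atf7ip* and *Cbx5*, and in 37.4% of all promoters.

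All 10 genes had a positive score, and so lay in the A compartment, in all 8 libraries. Among all protein-coding genes, 70.8% were in A in all 8 libraries and 21.2% were in B in all 8. By mean percentile the order was *Ehmt2* (96.8), *Setdb1* (94.8), *Cbx3* (94.8), *Cbx1* (87.3), *Cbx5* (86.9), *Atf7ip* (83.5), *Trim28* (81.5), *Ehmt1* (79.8), *Setdb2* (72.0) and *Suv39h2* (65.5). Every one of the 9 pairs of neighbours in this order overlapped in its range over the libraries, so no neighbours were separated beyond their spread. *Ehmt2*, with a percentile between 95.6 and 98.2, and *Suv39h2*, between 60.9 and 67.8, lay at the ends and did not overlap each other. On the score scale, the SD over the 8 libraries ran from 0.00170 for *Ehmt1* to 0.00426 for *Setdb1*, with a median of 0.00288. This order is not adjusted for chromosome. In units of the chromosome root-mean-square score, *Ehmt2* spanned less (1.80 to 1.93) than *Ehmt1* (0.985 to 1.21). The median SD of all genes was 0.00316 and that of genes in A throughout was 0.00304.

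**Figure D1:**
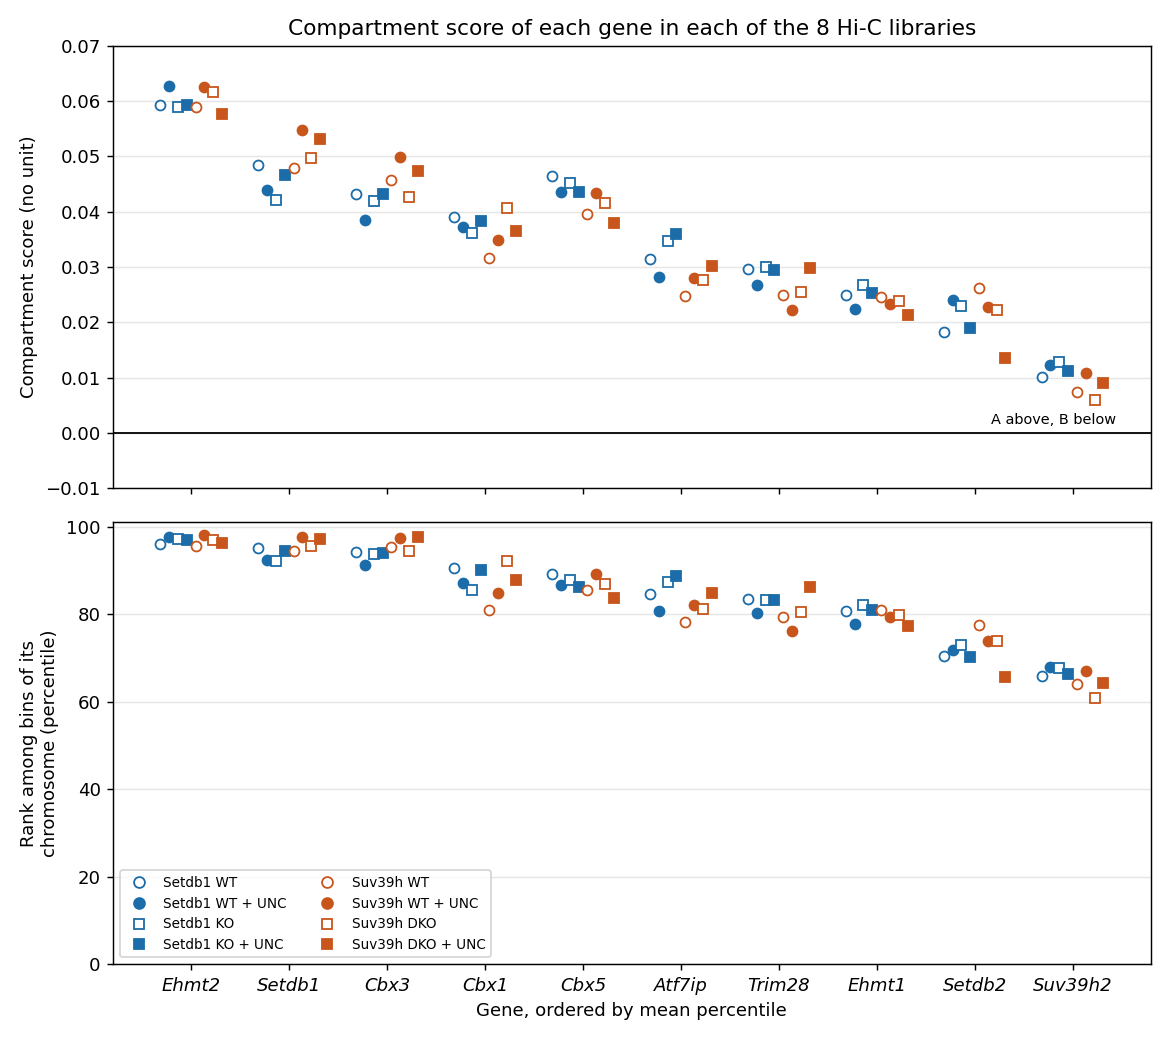
Compartment score (upper panel, no unit) and percentile among the bins of the same chromosome (lower panel) of the 10 genes in each of the 8 libraries, 1 point per library; colour gives the line, squares the knockouts and filled symbols UNC0642. Every point lies above 0, with *Ehmt2* ranked highest and *Suv39h2* lowest.

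*Setdb1* (ENSMUSG00000015697.14, chr3:95323525-95357202, minus strand) lay in a single bin with *Cers2* and *Anxa9*. Its score was 0.0485, 0.0439, 0.0422 and 0.0467 in the Setdb1 WT, WT + UNC, KO and KO + UNC libraries, and 0.0480, 0.0547, 0.0497 and 0.0532 in the Suv39h WT, WT + UNC, DKO and DKO + UNC libraries. Setdb1 KO was the lowest library and Suv39h WT + UNC the highest, and the libraries of the 2 lines overlapped. At its own deleted gene, SETDB1 loss gave a difference of -0.00633 without UNC0642 and 0.00275 with it, so the direction differed between the pairs. The limma estimate over both pairs was -0.00179 ± 0.00296 (SE; Benjamini-Hochberg adjusted p = 0.946). The 500 kb on each side averaged 0.0543, and the locus was lower than this flank in all 8 libraries, by a mean difference of -0.00591. It was the only one of the 10 genes with a mean below that of its flank, but the difference depended on the width of the flank. Over 1 Mb on each side it was -0.000428 ± 0.00373 (SD over 8 libraries), and the locus was higher than the flank in 4 of 8.

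*Atf7ip* (ENSMUSG00000030213.12, chr6:136506167-136610862, plus strand) scored 0.0314, 0.0281, 0.0347 and 0.0360 in the Setdb1 WT, WT + UNC, KO and KO + UNC libraries, and 0.0248, 0.0279, 0.0277 and 0.0302 in the Suv39h WT, WT + UNC, DKO and DKO + UNC libraries. Both Setdb1 KO libraries scored above both WT libraries of their line, with differences of 0.00332 without UNC0642 and 0.00786 with it. This gave the lowest unadjusted p of the members for any contrast in the limma fit, 0.0479 for an estimate of 0.00559 ± 0.00242 (SE), and the Benjamini-Hochberg adjusted p was 0.590. In that contrast 8.4% of all genes had an unadjusted p under 0.05. How many of all genes had both KO libraries above both WT libraries was not counted. The larger of the 2 differences rests on Setdb1 WT + UNC, against which 10.3% of all genes differed by at least 0.01, and without that library the estimate was 0.00282 (Benjamini-Hochberg adjusted p by limma = 0.9996). Without Setdb1 WT it was 0.00836 (Benjamini-Hochberg adjusted p by limma = 0.185). The gene scored 0.0138 above its flank on average, in all 8 libraries.

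*Trim28* (ENSMUSG00000005566.14, chr7:12999114-13031035, plus strand) lay in an A island. It scored 0.0297, 0.0267, 0.0301 and 0.0294 in the Setdb1 WT, WT + UNC, KO and KO + UNC libraries, and 0.0249, 0.0222, 0.0254 and 0.0298 in the Suv39h WT, WT + UNC, DKO and DKO + UNC libraries. The libraries of the lines overlapped, and Suv39h WT + UNC was the lowest. These are means of 2 bins. The GENCODE extent only just enters chr7:12900001-13000000, which scored between 0.0256 and 0.0344. The other bin, chr7:13000001-13100000, holds the RefSeq promoter and scored lower, between 0.0187 and 0.0273. The 500 kb on each side averaged between -0.00241 and 0.000742. The mean difference from the flank, 0.0281, was the largest of the 10 genes, and the locus was higher in all 8 libraries. Of the 10 flanking bins, 4 were in A in all libraries, 4 in B in all libraries and 2 varied. The window held 33 protein-coding genes, of which 10 had zinc finger names (Zfp, Zbtb or Zscan). Of all protein-coding genes, 0.980% had as many in the same window, and whether these 10 encode a KRAB domain was not examined. The run of adjacent A bins around *Trim28* was 0.7 Mb long in all 4 libraries of the Setdb1 line and 0.4 Mb in all 4 Suv39h libraries. A single bin made this difference, chr7:13100001-13200000, which scored 0.00223, 3.91e-05, 0.000694 and 0.00361 in the Setdb1 WT, WT + UNC, KO and KO + UNC libraries, and -0.00120, -0.00131, -0.00353 and -0.00579 in the Suv39h WT, WT + UNC, DKO and DKO + UNC libraries. These values all lie close to 0, and 10.2% of all genes scored lower in all 4 Suv39h libraries than in all 4 of the Setdb1 line.

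**Figure D2:**
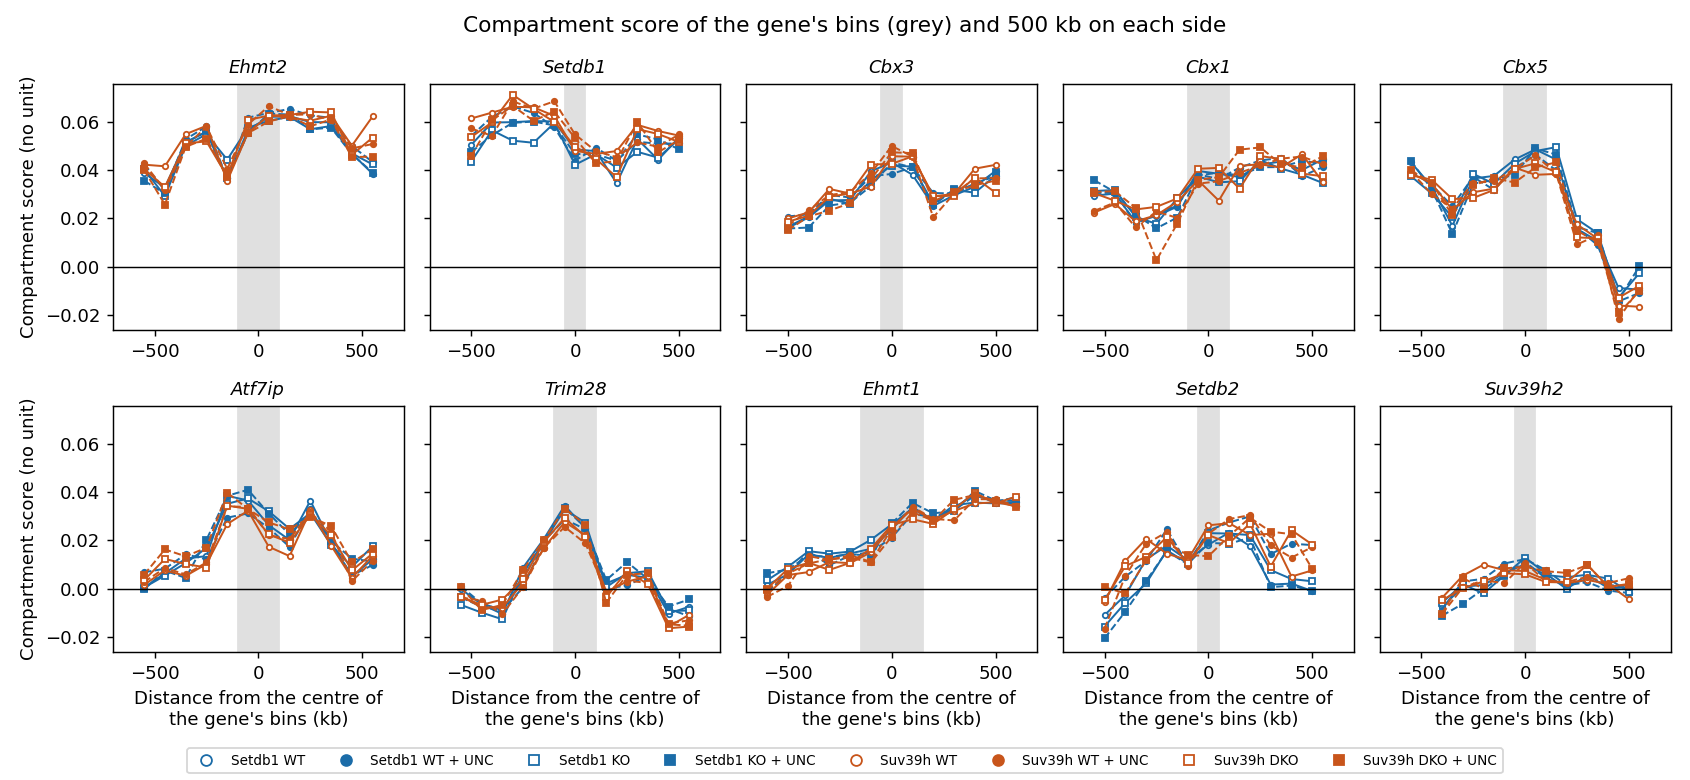
Compartment score (no unit) of the bins of each gene (grey band) and of 500 kb on each side, against distance from the centre of the bins in kb along the chromosome, 1 line per library (dashed with UNC0642). *Trim28* stands out of flanks near 0, *Cbx5* lies next to a step into B, and *Setdb1* lies below the mean of its flanks, though not below every neighbouring bin.

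*Setdb2* (ENSMUSG00000071350.12, chr14:59402009-59440884, minus strand), a relative of *Setdb1* with a SET domain, showed the only difference of at least 0.01 among the 10 genes in the 11 contrasts of 1 library with 1. It scored 0.0182, 0.0241, 0.0230 and 0.0190 in the Setdb1 WT, WT + UNC, KO and KO + UNC libraries, and 0.0262, 0.0228, 0.0222 and 0.0135 in the Suv39h WT, WT + UNC, DKO and DKO + UNC libraries. Suv39h DKO + UNC was the lowest library and Suv39h WT the highest, with a difference of -0.0128 between them. For comparison, 3.79% of all genes were lower by at least 0.01 in that contrast, so 1 of 10 members is not set apart by its count, and 1 library against 1 has no replicate check. The separate steps were smaller. SUV39H1/2 loss without UNC0642 gave -0.00404, and UNC0642 within Suv39h DKO gave -0.00873. The limma estimate for SUV39H1/2 loss was -0.00667 ± 0.00332 (SE; Benjamini-Hochberg adjusted p = 0.581). It was -0.00257 without Suv39h DKO + UNC and -0.0108 without Suv39h DKO.

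The flank of *Setdb2* was not low in the same library. The 500 kb on each side averaged 0.0149 in Suv39h DKO + UNC, against 0.0138, 0.0148 and 0.0147 in the Suv39h WT, WT + UNC and DKO libraries. In Suv39h DKO + UNC the gene thus scored below its flank by a difference of -0.00143, and in the other 7 libraries it scored above it, by up to 0.0163. The neighbouring bin chr14:59500001-59600000 scored 0.0219 in Suv39h DKO + UNC and 0.0271 in Suv39h WT, and the next, chr14:59600001-59700000, scored 0.0294 and 0.0222. The run of adjacent A bins holding *Setdb2* was between 9.1 and 9.3 Mb long in the 4 Suv39h libraries and in Setdb1 WT + UNC. It was 2.8 Mb in Setdb1 KO and 0.8 Mb in Setdb1 WT and Setdb1 KO + UNC, where it ended at the bin chr14:59900001-60000000 with scores of -0.000938 and -0.00100.

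*Suv39h2* (ENSMUSG00000026646.16, chr2:3455815-3475031, minus strand) ranked lowest. Its score was 0.0101, 0.0123, 0.0129 and 0.0112 in the Setdb1 WT, WT + UNC, KO and KO + UNC libraries, and 0.00734, 0.0107, 0.00598 and 0.00909 in the Suv39h WT, WT + UNC, DKO and DKO + UNC libraries. At its own deleted gene, SUV39H1/2 loss gave -0.00136 without UNC0642 and -0.00166 with it, and the limma estimate was -0.00151 ± 0.00232 (SE; Benjamini-Hochberg adjusted p = 0.873). Leaving out each Suv39h library in turn, the estimate ran from -0.00263 without Suv39h WT to -0.000391 without Suv39h WT + UNC, and was -0.000589 without Suv39h DKO and -0.00243 without Suv39h DKO + UNC. The locus lies near the start of the scored part of chromosome 2, and only 9 of its 10 flanking bins were scored. It stood 0.00796 above this flank on average, in all 8 libraries. Its A run was the shortest of the 10 genes in Setdb1 KO, at 0.3 Mb, and reached 3.6 Mb in Suv39h DKO. The A call of *Suv39h2* depended on the centring of the scores. Each chromosome averages 0 in the files, and the sums of squares imply, for an eigenvector of unit length, that a mean of unstated sign was removed. With this implied mean subtracted from the scores, *Suv39h2* was below 0 in Suv39h WT, Suv39h DKO and Suv39h DKO + UNC, with values of -0.00153, -0.00245 and -0.000482.

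The genes of the 2 enzymes that UNC0642 inhibits were *Ehmt2* (ENSMUSG00000013787.15, chr17:34898469-34914052, plus strand) and *Ehmt1* (ENSMUSG00000036893.17, chr2:24789928-24919614, minus strand). *Ehmt2*, inside the gene-dense major histocompatibility region, scored 0.0593, 0.0627, 0.0590 and 0.0593 in the Setdb1 WT, WT + UNC, KO and KO + UNC libraries, and 0.0590, 0.0626, 0.0617 and 0.0577 in the Suv39h WT, WT + UNC, DKO and DKO + UNC libraries. The treated and untreated libraries overlapped, and the limma estimate for UNC0642 was 0.000853 ± 0.00182 (SE; Benjamini-Hochberg adjusted p = 0.999). *Ehmt1*, which spans 3 bins, scored 0.0249, 0.0224, 0.0267 and 0.0254 in the Setdb1 WT, WT + UNC, KO and KO + UNC libraries, and 0.0245, 0.0233, 0.0239 and 0.0214 in the Suv39h WT, WT + UNC, DKO and DKO + UNC libraries. It was lower with UNC0642 in 4 of 4 pairs, and how many of all genes were lower in 4 of 4 was not counted. The limma estimate for *Ehmt1* was -0.00190 ± 0.00150 (SE, Benjamini-Hochberg adjusted p = 0.996). In the bin of its start site alone the direction turned, with an estimate of 0.000832 and higher scores with UNC0642 in 3 of 4 pairs. Within *Ehmt1* the score was higher toward the start of the gene in every library, from between 0.0109 and 0.0203 in the bin at the 3′ end to between 0.0287 and 0.0355 in the bin of the start. *Ehmt2* stood 0.0106 above its flank on average, and above it in all 8 libraries. *Ehmt1* stood 0.00250 above its own on average, and above it in 7 of 8.

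Of the HP1 genes, *Cbx1* (ENSMUSG00000018666.13, chr11:96789127-96808640, plus strand) scored 0.0391, 0.0373, 0.0361 and 0.0384 in the Setdb1 WT, WT + UNC, KO and KO + UNC libraries. In the Suv39h WT, WT + UNC, DKO and DKO + UNC libraries it scored 0.0316, 0.0349, 0.0407 and 0.0366. Suv39h WT was thus its lowest and Suv39h DKO its highest library, and their difference of 0.00915 was the largest of the 10 genes for SUV39H1/2 loss without UNC0642. With UNC0642 the difference was 0.00165, and the limma estimate over both pairs was 0.00540 ± 0.00256 (SE; Benjamini-Hochberg adjusted p = 0.556). It was 0.00268 without Suv39h DKO, 0.00312 without Suv39h WT and 0.00812 without Suv39h DKO + UNC. Most of the first difference lay in the second of the 2 bins of the gene, chr11:96800001-96900000, at 0.0274 in Suv39h WT and 0.0409 in Suv39h DKO. *Cbx1* lies beside the Hoxb cluster and differed little from its flank, by 0.00391 on average.

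*Cbx3* (ENSMUSG00000029836.15, chr6:51470360-51483704, plus strand) scored 0.0432, 0.0384, 0.0419 and 0.0432 in the Setdb1 WT, WT + UNC, KO and KO + UNC libraries, and 0.0457, 0.04999, 0.0426 and 0.0474 in the Suv39h WT, WT + UNC, DKO and DKO + UNC libraries. It was higher with UNC0642 in 3 of 4 pairs, by 0.00129, 0.00425 and 0.00476, and lower in Setdb1 WT by a difference of -0.00477. The term for a different UNC0642 response between the lines was 0.00624 ± 0.00367 (SE; Benjamini-Hochberg adjusted p = 0.999). It shares its bin with *Hnrnpa2b1* and stood 0.0136 above its flank on average, and above it in all 8 libraries.

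*Cbx5* (ENSMUSG00000009575.14, chr15:103191544-103239816, minus strand) scored 0.0465, 0.0436, 0.0453 and 0.0435 in the Setdb1 WT, WT + UNC, KO and KO + UNC libraries, and 0.0396, 0.0434, 0.0417 and 0.0380 in the Suv39h WT, WT + UNC, DKO and DKO + UNC libraries. It was the only member whose lines did not overlap, with all 4 Suv39h libraries below all 4 of the Setdb1 line. The gap was narrow, between 0.0434 and 0.0435, and 10.2% of all genes were separated in this direction and 5.31% in the other. The gene lies beside the Hoxc cluster and 3 bins from a step into B that kept its place in all 8 libraries. It stood 0.0217 above its flank, the second largest such difference.

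The question that the design puts to these loci is whether loss of SETDB1 or SUV39H1/2, or inhibition of G9a and GLP, moved their compartment position. No member passed the test in any contrast. The limma fit pooled the 8 libraries, with the 4 backgrounds as a block, and adjusted over all 20721 genes. Adjusted p-values of the members ran from 0.996 to 0.999 for UNC0642, from 0.590 to 0.997 for SETDB1 loss and from 0.556 to 0.993 for SUV39H1/2 loss. No gene of any kind passed (0%) in these contrasts by limma, with 4.15%, 8.4% and 9.53% of genes at an unadjusted p under 0.05. Of the members, 0, 1 and 0 had such a p, the 1 being *Atf7ip* for SETDB1 loss. Estimates were positive for 5 of 10 members with UNC0642, for 5 with SETDB1 loss and for 4 with SUV39H1/2 loss, with medians of 0.000374, 0.000329 and -0.00121 against -5.48e-05, 6.18e-05 and -5.81e-05 over all genes. The SEs of the members ran from 0.00150 to 0.00235 for UNC0642 and from 0.00212 to 0.00332 for either knockout, and a p above the threshold does not show that a score stayed the same. If no other gene passed, a single gene needed an unadjusted p of 2.41e-06, which by limma's moderated test is an estimate of 11.1 SEs. At the members' SEs this is from 0.0166 to 0.0260 for UNC0642 and from 0.0235 to 0.0367 for either knockout, so changes several times the size of the errors were not detectable in a single gene with 8 libraries.

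**Figure D3:**
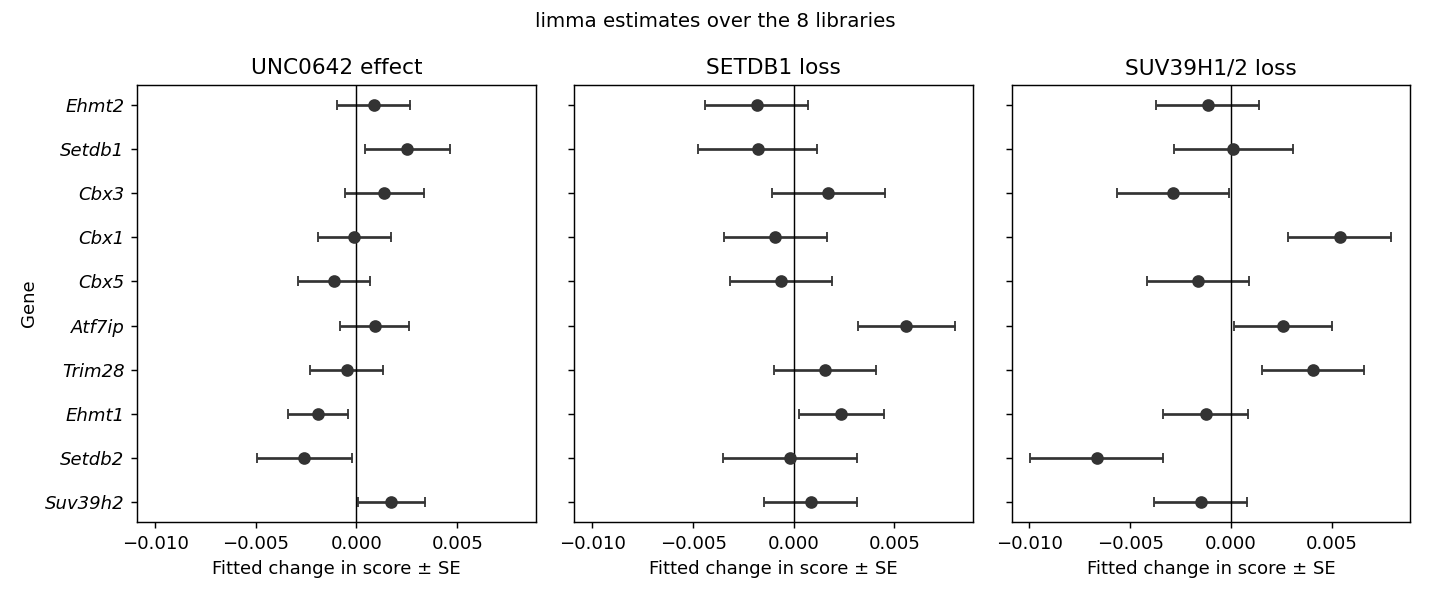
limma estimates of the change in compartment score (no unit) of each gene with UNC0642, SETDB1 loss and SUV39H1/2 loss over the 8 libraries, with bars of 1 SE. The estimates with the lowest unadjusted p-values are those of *Atf7ip* for SETDB1 loss and *Cbx1* and *Setdb2* for SUV39H1/2 loss, and none passes after adjustment.

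Single pairs of libraries allow no test. Over 11 contrasts and 10 genes there were 110 differences, with a median size of 0.00285, and 17 reached 0.005. The shares of all genes that reached 0.005 either way were 27.1% for UNC0642 in Setdb1 WT, 13.7% in Setdb1 KO, 20% in Suv39h WT and 26.5% in Suv39h DKO. They were 15.1% and 33.8% for SETDB1 loss without and with UNC0642, 27% and 27.1% for SUV39H1/2 loss, 15.2% and 32.9% for either loss plus UNC0642 against WT, and 36.9% between the untreated WT libraries. At 0.01, the size of change used for bins in the study, 1 of the 110 was counted, that of *Setdb2* given above. The background shares of genes changing by at least 0.01 either way were 6.62% for UNC0642 in Setdb1 WT, 0.965% in Setdb1 KO, 3.26% in Suv39h WT and 5.08% in Suv39h DKO. They were 1.42% and 10.3% for SETDB1 loss without and with UNC0642, and 4.87% and 4.8% for SUV39H1/2 loss. For loss plus UNC0642 against WT they were 1.64% for SETDB1 and 6.55% for SUV39H1/2, and the untreated WT libraries of the lines differed at 10%. No member reached 0.01 between those WT libraries, where the extremes were *Cbx1* at -0.00748 and *Setdb2* at 0.00801. The contrasts share libraries and are not independent.

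**Figure D4:**
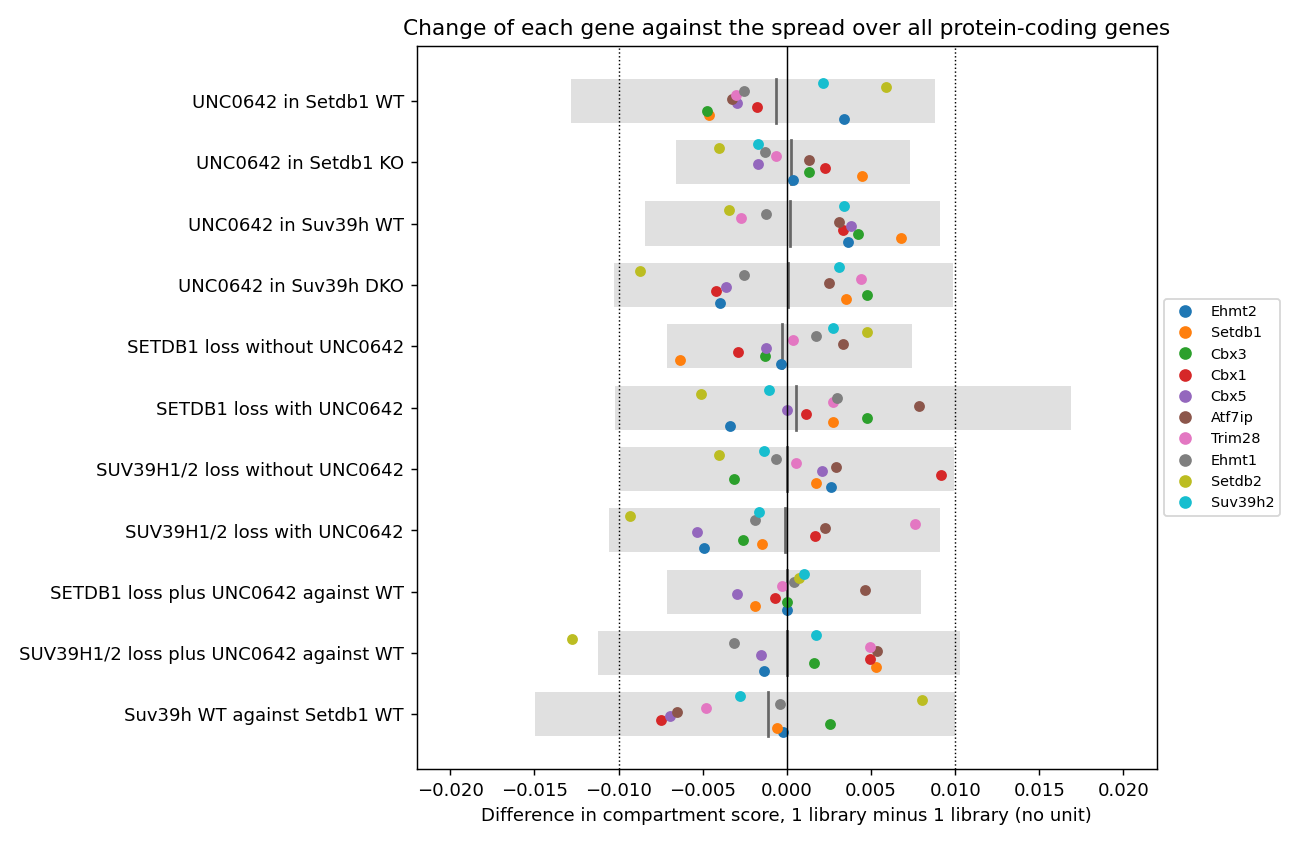
Difference in compartment score (no unit) of each of the 10 genes (points) in the 11 contrasts of 1 library with 1, over the central 95% of all protein-coding genes (grey bars) and their median (dark line); dotted lines mark 0.01. Only *Setdb2* in the contrast of SUV39H1/2 loss plus UNC0642 against WT lies outside its grey bar and past 0.01.

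UNC0642 left no member with its 4 treated libraries all above or all below the 4 untreated ones, and 0.671% and 0.589% of all genes were separated in these directions. The test for a different UNC0642 response between the lines called no gene by limma (0%, with 4.02% at an unadjusted p under 0.05), and the adjusted p-values of the members ran from 0.9987 to 0.9997.

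Of 9 H3K9 demethylase genes, 8 were in A in all libraries, as were 70.8% of all genes. *Kdm4c*, which removes methyl groups from H3K9me3, was close to 0 with scores from -0.00686 in Suv39h DKO to 0.00119 in Setdb1 WT and lay in A in 3 of 8 libraries. Those were Setdb1 WT, Setdb1 KO and Setdb1 KO + UNC. The highest of the list by mean percentile was *Phf2*, an H3K9me2 demethylase, at 98.7 and between 98.0 and 99.2 over the libraries. Pooled over the 11 contrasts, 5.05% of the differences of all genes reached 0.01. Of 99 differences in this list 1 did, that of *Kdm3a*. All 19 genes of partners and readers were in A in all libraries, with *Daxx*, a histone H3.3 chaperone, highest at a mean percentile of 96.98 and *Morc2a*, an ATPase that works with the HUSH silencing complex, lowest at 68.5. Both overlapped the next gene of the list in range (*Uhrf1* at 96.8 and *Smarcad1* at 69.4). Of their 209 differences, 6 reached 0.01. Of these 6, 4 involved the Setdb1 WT + UNC library (*Fam208a*, *Resf1* and *Smarcad1* for SETDB1 loss with UNC0642, and *Lbr* for UNC0642 in Setdb1 WT) and the others lay between the WT lines (*Fam208a* and *Chaf1b*). The limma fit called none of either list in any contrast, and 1 partner gene, *Cdyl*, had an unadjusted p under 0.05, of 0.0389 for SETDB1 loss. The 7 pluripotency markers checked for the labelled cell type (*Pou5f1*, *Nanog*, *Sox2*, *Esrrb*, *Klf4*, *Tdgf1* and *Zfp42*) were in A in all 8 libraries and 0 were called, although a compartment score does not measure expression. Of their 77 differences 5 reached 0.01, shared by *Klf4* (2), *Zfp42* (2) and *Tdgf1* (1). *Klf4* had unadjusted p-values by limma of 0.00915 for UNC0642, 0.0160 for SETDB1 loss and 0.00377 for SUV39H1/2 loss, none of which passed after adjustment.

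Gene density, GC content and the difference from the flank were not used in the choice of genes, and the members' counts lay near the shares over all genes. Their bins held more protein-coding genes than the median bin of their chromosome in 10 of 10 cases, as did those of 89.7% of all genes. GC content was above the chromosome median in 9 of 10 cases, against 75.0% of all genes, and the exception was *Setdb2*, at 39.2% in a chromosome with a median of 41.2%. *Ehmt2*, the highest in rank, had the highest GC content at 50.4%. In 9 of 10 cases the mean score exceeded that of the 500 kb on each side, against 79.5% of the genes in A throughout, whose median difference was 0.00605. The genes on other chromosomes with the most similar 8 scores, by root-mean-square difference, were *Kpna2* for *Trim28* (0.000938), *Sept14* for *Atf7ip* (0.00101), *Osbpl3* for *Ehmt1* (0.00109), *Fzd7* for *Cbx5* (0.00138), *Ebf3* for *Suv39h2* (0.00147), *Usp32* for *Setdb2* (0.00151) and *Pald1* for *Ehmt2* (0.00155). *Setdb1*, *Cbx3* and *Cbx1* were nearest to groups of 11, 3 and 7 genes with identical scores, of which *Cd68*, *Bag4* and *Gpr182* come first by name. This similarity is on the score scale, whose size depends on the chromosome, so it does not show that the genes rank alike on their own chromosomes.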

How the data were processed

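Hi-C, which counts contacts between loci in fixed nuclei, was done on mESCs of 8 groups, and 1 deposited set of scores per group, called a library here, was analysed. The authors cut chromatin with DpnII, processed reads with the 4D Nucleome pipeline and Juicer against mm10, kept alignments by mapping quality, and took the first eigenvector of each KR-normalised autosomal map in 100-kb bins. The deposited values are these compartment scores, and they have no physical unit. The study repeated its Hi-C, and which repeat or pool a file holds is not stated. With 1 library per group, no spread between repeats enters a p-value here. The error of the main limma fit comes from how the UNC0642 difference varied between the 4 backgrounds, with information shared over all genes. In the files each chromosome averages 0, so a change shared by a whole chromosome cannot appear.

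Of 24005 bins, the 23972 scored in all 8 libraries were used. Genes came from GENCODE vM21 (GRCm38, the coordinates of mm10), and sequences and promoters from RefSeq on GRCm38.p6. A gene took the mean score of its bins, and 1 list name was matched through an older symbol (*Tasor*, listed as *Fam208a*). limma 3.58.1 in R 4.3.3 fitted background as a block and UNC0642, with contrasts for SETDB1 loss and SUV39H1/2 loss, eBayes moderation (3 residual and 5.51 prior degrees of freedom) and Benjamini-Hochberg adjustment at 0.05 over all genes. A term for a UNC0642 response that differs by line was added in another fit. The fits were also run on simulated scores with 200 genes changed at once. There, changes of 0.01 were mostly missed for UNC0642 and all missed for either knockout, and most changes of 0.02 were recovered. Python 3.11.15 computed the rest.

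The members and gene lists were chosen with earlier results of these data known. The text names the 10 members, the highest and lowest genes of each list by percentile and those whose sign varied, and for each member the nearest gene on another chromosome. *Kdm3a*, *Fam208a*, *Resf1*, *Smarcad1*, *Lbr*, *Chaf1b*, *Cdyl*, *Uhrf1*, *Klf4*, *Zfp42* and *Tdgf1* were named after their values were seen. Alternatives were other scalings (root-mean-square, quantile, implied chromosome mean added or subtracted), 500-kb means, the bin of the start site, a fit on bins, other limma settings, other sizes of change, other flanks and leaving out libraries. A change of 0.35 of the chromosome root-mean-square score was added after seeing the data.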

Additional observations from a re-analysis of the deposited data

Results flagged for a closer look

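*Ehmt1*, which encodes GLP, differed in opposite directions with the 2 knockouts. SETDB1 loss gave differences of 0.00175 without UNC0642 and 0.00298 with it, and SUV39H1/2 loss gave -0.000619 and -0.00189. The difference between the knockouts was not tested, and the SD of the gene over the 8 libraries was 0.00170. By limma the estimate for SETDB1 loss was 0.00236 ± 0.00212 (SE, Benjamini-Hochberg adjusted p = 0.858). That for SUV39H1/2 loss was -0.00125 ± 0.00212 (SE, Benjamini-Hochberg adjusted p by limma = 0.888). How many of all genes show such a split of directions was not counted, so *Ehmt1* is not set apart by it.

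Among the 4 untreated libraries, *Ehmt2* stood apart in Suv39h DKO, at 0.0617 against values from 0.0590 to 0.0593 in the others. Among the 4 UNC0642-treated libraries, *Cbx5* stood apart in Suv39h DKO + UNC, at 0.0380 against values from 0.0434 to 0.0436. In all 20 sets of 4 libraries were examined in this way, in which chance alone would mark about 1, and 2 were marked.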

How the results depend on the processing

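The A call held in all 8 libraries for 10 of 10 members under 4 of the 6 other scalings and bin definitions, and for 9 of 10 with the implied chromosome mean subtracted and with 500-kb means, where *Suv39h2* was below 0 (lowest -0.00245, and -0.000122 in Setdb1 KO + UNC with 500-kb means). No member passed the test under any alternative for UNC0642, SETDB1 loss or SUV39H1/2 loss. For the term for a different UNC0642 response by line, single members were not followed through the alternatives, and no gene passed in any of them. Over all genes, leaving out 1 library gave 0 to 399 calls for SETDB1 loss and 0 to 0 calls for SUV39H1/2 loss and the term for a different UNC0642 response by line, and leaving out 1 treated and untreated pair gave 0 to 0 calls for UNC0642. The 399 calls (366 higher and 33 lower) came without Setdb1 WT, when Setdb1 WT + UNC was the only control and was assumed to vary like the other groups. Fitted on bins, 0 of the 17 member bins passed.

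The count of members changing by at least 0.01 was 0 in 10 contrasts and 1 for SUV39H1/2 loss plus UNC0642 against WT. That 1 became 0 with 500-kb means and at 0.02. At 0.005 the count of 10 was 1 for UNC0642 in Setdb1 WT (27.1% of all genes), in Suv39h WT (20%) and in Suv39h DKO (26.5%) and for SETDB1 (15.1%) and SUV39H1/2 loss (27%) without UNC0642, 2 for SETDB1 loss with UNC0642 (33.8%), 3 for SUV39H1/2 loss with UNC0642 (27.1%) and against WT (32.9%), and 4 between the WT lines (36.9%). At 0.01 with the implied mean subtracted it was 1 for UNC0642 in Suv39h DKO (1329 of all 20721 genes) and for SUV39H1/2 loss with UNC0642 (1247), with quantile normalization 1 for the latter (917), and with the bin of the start site 1 between the WT lines (2402 of 20713). The cause was not tested.

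Mean differences from the flank kept their sign with other flanks, but at 1 Mb *Setdb1* was above its flank in 4 of 8 libraries and *Cbx1* in 5 of 8. Over 300 kb they were 0.00403 for *Setdb2*, 0.00535 for *Ehmt2*, 0.00831 for *Atf7ip*, 0.0232 for *Trim28* and 0.0160 for *Cbx5*. That of *Ehmt1* was 0.00121 over 300 kb, with the locus higher in 6 of 8 libraries. Over 1 Mb they were -0.000428 for *Setdb1*, 0.00580 for *Ehmt1*, 0.00717 for *Ehmt2*, 0.0313 for *Trim28*, 0.000871 for *Cbx1* and 0.0177 for *Cbx5*.

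Of 420 refitted member estimates 36 changed sign, all with a size of at most 0.00259 in the reported fit. For UNC0642 these were *Suv39h2* (-0.00112) and *Cbx3* (-0.000645) with 500-kb means, *Ehmt1* (0.000832), *Atf7ip* (-6.84e-05) and *Cbx5* (0.00132) with the start-site bin, *Ehmt2* (-3.35e-05) with the implied mean subtracted and *Cbx1* (0.000198) with it added. For SETDB1 loss they were *Suv39h2* (-0.00209), *Cbx3* (-0.00166) and *Cbx5* (0.00144) with 500-kb means and *Cbx5* (0.000938) with the start-site bin. For SUV39H1/2 loss they were *Setdb1* with 500-kb means (-0.00163) and with the implied mean subtracted (-0.000809), *Ehmt2* with quantile normalization (0.000118) and the start-site bin (0.000854), and *Atf7ip* (-4.81e-05) with the start-site bin. Leaving out libraries, the UNC0642 estimate ran from -6.74e-05 to 0.00246 for *Ehmt2*, from -0.00212 to 0.000350 for *Trim28* and from -0.00124 to 0.00125 for *Cbx1*. The SETDB1 estimate ran from -0.00656 to 0.00298 for *Setdb1*, from -0.00582 to 0.00547 for *Setdb2*, from -0.00147 to 0.00314 for *Suv39h2*, from -0.000134 to 0.00324 for *Trim28*, from -0.00247 to 0.000660 for *Cbx1*, from -0.00238 to 0.00582 for *Cbx3* and from -0.00183 to 0.000594 for *Cbx5*. The SUV39H1/2 estimate ran from -0.00271 to 0.00296 for *Setdb1*, from -0.00437 to 0.00204 for *Ehmt2* and from -0.00493 to 0.00166 for *Cbx5*. Treated and untreated libraries were paired by background in the UNC0642 fit, which without that block called 0 genes by limma (296 at an unadjusted p under 0.05). With 1 library per group there was no pairing by replicate number. Since the files carry no read counts and do not name the repeat they hold, no depth-based error is given.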
